A study of Mus musculus with 6 samples.

Results

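The G1 cyclins and their kinases are the 8 genes Ccnd1, Ccnd2, Ccnd3, Ccne1, Ccne2, Cdk2, Cdk4 and Cdk6, of 17097 genes measured in regenerating mouse liver. They were taken by name: among the probe sets annotated to a gene alone, the brightest on average across the 6 arrays represents it, and the other probe sets of the gene serve as a check. The 8 genes had 20 such probe sets. Expression was measured on 6 one-colour Affymetrix arrays, each from 1 animal, in liver remnants of mice killed 12 h after a 70% partial hepatectomy, an operation that takes out most of the liver and makes the remnant regrow. Wildtype mice gave 3 arrays and mice with a knockout of the zinc-finger transcription factor Klf6 in hepatocytes, labelled DeltaKlf6, gave the other 3. Both groups were C57Bl/6 mice that had undergone the operation, and no array of unoperated liver was analysed here. Neither the animals' age and sex nor the Cre driver of the knockout is given in the sources used here. The comparison asks which of these transcripts differ in regenerating liver when hepatocytes carry the Klf6 deletion.

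The D-type cyclins bind and activate the kinases Cdk4 and Cdk6 when growth factors act on a resting cell. These kinases phosphorylate the retinoblastoma protein, which then releases E2F transcription factors. E2F factors switch on the genes of the E-type cyclins, which activate Cdk2 and carry the cell into DNA synthesis. Hepatocytes are mostly quiescent in adult liver and enter G1 after hepatectomy, and a rise of cyclin D1 is a classical sign that they have passed the point of dependence on mitogens.

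Before the 8 genes are described, the labels were checked on the targeted gene. The brightest of the 3 Klf6 probe sets was at 5.09, 4.43 and 5.20 in wildtype 1 to 3 and at 7.03, 4.61 and 3.15 in the libraries labelled DeltaKlf6 1 to 3 (log2 level). Klf6 was thus highest, not lowest, in the library labelled DeltaKlf6 1, on all 3 of its probe sets. DeltaKlf6 2 lay within the wildtype range on the brightest. On the next probe set DeltaKlf6 2 and 3 were at 4.12 and 3.74, within the wildtype range of 3.73 to 4.44. On the dimmest they were at 2.82 and 2.83, below the wildtype range of 3.41 to 4.03. A loss of Klf6 signal was thus not seen on every probe set in any of these libraries, and every direction here is between libraries as labelled. Where the sign of a gene's printed difference or of a list's printed median turned without DeltaKlf6 1, the value without it is given. The sources used here do not place these probe sets inside or outside the deleted exons. Albumin (Alb), the defining hepatocyte marker, was between 12.52 and 13.33 in all 6 arrays. The upper quartile of all values was 5.08 in the library labelled DeltaKlf6 3 and 5.50 to 5.63 in the other 5. The 3' minus 5' signal of the Gapdh control probe sets grows with RNA breakdown. It was 3.47, 3.45 and 4.83 in DeltaKlf6 1 to 3 and 4.06 to 4.43 in wildtype. The like actin controls differed by 4.22, 3.998 and 5.05 in DeltaKlf6 1 to 3 and by 4.86 to 5.39 in wildtype. The median SD of a gene was 0.24 in wildtype and 0.35 in DeltaKlf6. In whole liver, fewer cells of a type and less RNA per cell cannot be told apart.

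Sp1 and the Klf proteins bind GC-rich elements, so the promoter windows of the 8 genes were searched, and those of the genes whose groups separated upward, Ccne1 and Cdk4, are shown with that of Cdk2, the kinase partner of cyclin E, for contrast. The windows are RefSeq sequences of build GRCm38.p6 that run from 250 bases before the annotated start to 50 after it. A total of 5 of the 8 genes had windows, 6 in all, and Ccnd1, Ccnd2 and Ccne2 had none here. Capitals mark the GC box, GGGCGG on either strand, and, in Cdk2, an E2F word (TTTCCCGC on the other strand).
Ccne1, chr7:38107441-38107740, minus strand: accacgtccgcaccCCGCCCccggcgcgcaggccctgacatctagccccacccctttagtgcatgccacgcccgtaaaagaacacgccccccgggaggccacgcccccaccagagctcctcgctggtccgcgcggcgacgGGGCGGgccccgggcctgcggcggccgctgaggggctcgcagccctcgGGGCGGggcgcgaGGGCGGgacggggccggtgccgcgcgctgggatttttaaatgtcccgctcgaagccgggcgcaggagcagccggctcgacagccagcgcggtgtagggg
Cdk4, chr10:127063285-127063584, plus strand: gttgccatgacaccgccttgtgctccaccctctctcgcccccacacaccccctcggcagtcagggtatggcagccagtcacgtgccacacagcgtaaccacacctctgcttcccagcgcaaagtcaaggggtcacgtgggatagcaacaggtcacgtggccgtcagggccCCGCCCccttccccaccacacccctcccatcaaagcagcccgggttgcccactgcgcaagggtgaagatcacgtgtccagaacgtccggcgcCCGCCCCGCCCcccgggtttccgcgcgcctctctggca
Cdk2, chr10:128705002-128705301, minus strand: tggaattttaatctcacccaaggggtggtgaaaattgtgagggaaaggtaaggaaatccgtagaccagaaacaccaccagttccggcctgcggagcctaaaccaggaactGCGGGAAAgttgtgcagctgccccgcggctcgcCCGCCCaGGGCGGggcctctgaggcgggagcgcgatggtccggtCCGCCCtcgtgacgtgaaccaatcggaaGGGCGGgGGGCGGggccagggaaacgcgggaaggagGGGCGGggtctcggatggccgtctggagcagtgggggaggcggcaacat

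The Ccne1 window held 4 GC boxes, that of Cdk4 held 3, of which 2 overlap by a base, and that of Cdk2 held 6. Each of the 2 Ccnd3 windows held 2 and the Cdk6 window held 0. At least 1 GC box stood in 35.7% of all 32851 promoter windows. The E2F words searched were TTTCCCGC, TTTCGCGC, TTTGCCGC and TTTGGCGC on both strands, and 2.26% of all windows held at least 1. Cdk2 held 1 and the other 5 windows held 0. The shorter word CACCC, the other element that Klf proteins bind, stood on either strand in 57.5% of all windows, and occurred 2 times in Ccne1, where 1 copy overlaps a GC box by a base, 4 times in Cdk4, 2 times in Cdk2, 3 times in each Ccnd3 window and 1 time in Cdk6. In the first Ccnd3 window 1 CACCC also overlaps a GC box. Cdk2, with the most GC boxes, had a lower mean in DeltaKlf6, as had Ccnd3 and Cdk6, and Ccne1 and Cdk4 had higher ones. The Ccne1, Cdk4 and Cdk2 windows were 76%, 67% and 64.7% G or C, against a median of 52.7% over all windows. The words counted are matches of letters in the windows searched and not measured binding. Their link to the differences was not tested.

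Among the 8 genes, Ccne1 had the largest difference between the groups, Cdk4 was slightly higher and Ccnd3 slightly lower in every library labelled DeltaKlf6, and the other 5 overlapped between the groups. No gene of the 8 passed the test. By limma, fitted on all genes with Benjamini-Hochberg adjustment at 0.05, 0 of 17097 genes were called (0%), and the adjusted p of the 8 genes lay between 0.992 and 0.996. By group mean 4 of the 8 were higher and 4 were lower, with a median difference of 0.13 on the log2 scale, against 48.4% of all genes higher, 51.6% lower and a median of -0.01. The groups did not overlap for 3 of the 8, of which 2 were higher and 1 was lower. Over all genes the groups did not overlap for 9.32%, with 3.41% higher and 5.91% lower. At an unadjusted p under 0.05 stood 1 of the 8, Ccne1, which was higher, against 3.69% of all genes in either direction and 1.21% higher. With 3 arrays against 3, the smallest p that the exact two-sided permutation test over arrays can give is 0.1. Since the 8 genes were taken as a set with earlier results of these arrays known, these counts are a description.

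**Figure D1:**
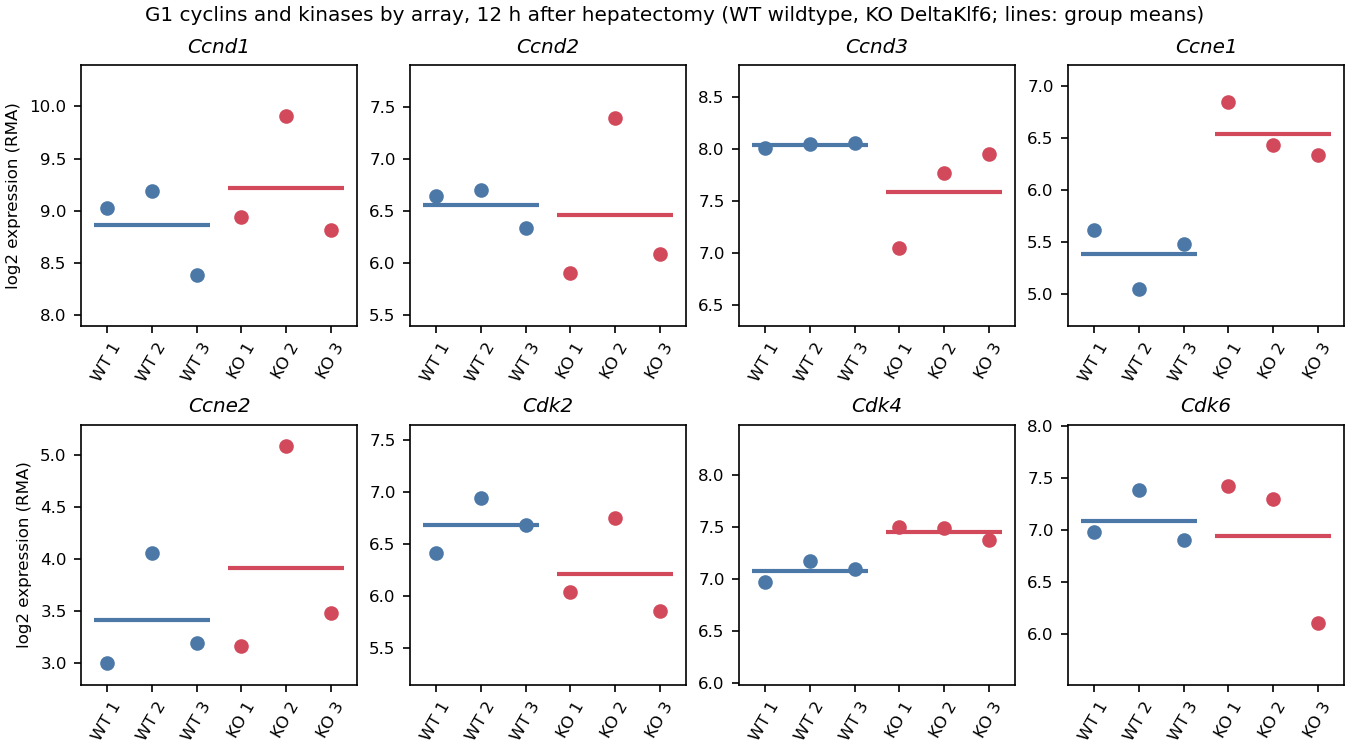
Log2 expression of the 8 genes in each array, with wildtype (WT) in blue, DeltaKlf6 (KO) in red and lines at the group means. All panels span the same number of log2 units. Ccne1 lies between 5.05 and 5.62 in wildtype and between 6.34 and 6.85 in DeltaKlf6, while Ccnd1, Ccnd2 and Ccne2 are highest in KO 2.

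Cyclin D1 (Ccnd1), the D-type cyclin induced in hepatocytes by mitogens after hepatectomy, was read by 3 probe sets. The brightest was at 9.02, 9.18 and 8.38 in wildtype 1 to 3 and at 8.94, 9.91 and 8.82 in DeltaKlf6 1 to 3. The library labelled DeltaKlf6 2 lay above every wildtype array, and the other 2 libraries labelled DeltaKlf6 lay within the wildtype range. The group means were 8.86 ± 0.42 and 9.22 ± 0.60 (SD, n = 3 each), a log2 difference of 0.36 (SE 0.35, 95% interval -0.46 to 1.18, limma adjusted p = 0.992). Without DeltaKlf6 2 the difference was 0.01. The other Ccnd1 probe sets gave differences of 0.09 and 0.23 and were also highest in DeltaKlf6 2, at 8.84 and 6.88. The 3 probe sets therefore placed the same array at the top and showed no separation of the groups.

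Cyclin D2 (Ccnd2), a D-type cyclin of the same function, varied more among the libraries labelled DeltaKlf6 than among the wildtype ones. It was at 6.64, 6.70 and 6.34 in wildtype 1 to 3 and at 5.90, 7.39 and 6.08 in DeltaKlf6 1 to 3. DeltaKlf6 2 was thus above every wildtype array and DeltaKlf6 1 and 3 were below every one. The group difference was -0.10 (SE 0.39, 95% interval -0.9995 to 0.81, limma adjusted p = 0.996), and the SD was 0.19 in wildtype and 0.81 in DeltaKlf6. The sign of the difference depended on single arrays: it was -0.56 without DeltaKlf6 2, 0.18 without DeltaKlf6 1 and 0.09 without DeltaKlf6 3. Of 6 probe sets 3 were lower and 3 higher by group mean. The 3 higher ones were the dimmest, with means of 3.64, 2.95 and 2.28. Of these only the first exceeded the brightest nonspecific control probe set of an array, in wildtype 2 alone (4.14 against 3.69). Their direction thus lies at the level of unspecific signal. The second brightest of the 6 was at 3.76, 5.58 and 4.11 in DeltaKlf6 1 to 3 against 4.50, 4.60 and 4.81 in wildtype. It repeated the spread of DeltaKlf6 2 above and DeltaKlf6 1 and 3 below. In DeltaKlf6 1 and 3 it lay under the brightest nonspecific control probe set of the array (4.44 and 4.23). Its level there cannot be told from unspecific signal.

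Cyclin D3 (Ccnd3), the third D-type cyclin, was at 8.01, 8.04 and 8.06 in wildtype 1 to 3 and at 7.05, 7.77 and 7.95 in DeltaKlf6 1 to 3. All 3 libraries labelled DeltaKlf6 lay below the wildtype arrays, but DeltaKlf6 3 by only 0.05. The difference was -0.44 (SE 0.27, 95% interval -1.07 to 0.18, limma adjusted p = 0.992, exact permutation p = 0.1). Most of it came from DeltaKlf6 1, the library with high Klf6, without which it was -0.17. The other probe set of Ccnd3 was dim, with a mean of 3.36, and its groups overlapped (-0.02).

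Cyclin E1 (Ccne1), which activates Cdk2 at the entry into S phase, stood higher in every library labelled DeltaKlf6. Its only probe set was at 5.62, 5.05 and 5.48 in wildtype 1 to 3 and at 6.85, 6.44 and 6.34 in DeltaKlf6 1 to 3. The lowest DeltaKlf6 value exceeded the highest wildtype value by 0.72, which is more than the SD within either group (0.30 in wildtype and 0.27 in DeltaKlf6). The group means of 5.38 and 6.54 (n = 3 each) differed by 1.16 (SE 0.25), a fold of 2.23 with a 95% interval of 1.496 to 3.33. By unadjusted p Ccne1 ranked 19 of 17097 genes in limma. The limma p was 0.00171 before adjustment and 0.992 after it, so Ccne1 did not pass. The exact permutation test over arrays gave p = 0.1, the smallest possible. Leaving out each array in turn gave differences between 0.99 and 1.27. There is no other probe set to check it against. Klf6 and Ccne1 were both highest in DeltaKlf6 1, and without that library the Ccne1 difference was 1.003.

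Cyclin E2 (Ccne2), the other E-type cyclin, followed another pattern. It was at 3.00, 4.05 and 3.20 in wildtype 1 to 3 and at 3.16, 5.08 and 3.48 in DeltaKlf6 1 to 3. In 2 arrays, wildtype 2 and DeltaKlf6 2, it exceeded the brightest of the 23 nonspecific control probe sets of the same array, and in the other 4 it did not, so that its level there cannot be told from unspecific signal. The group difference was 0.49 (SE 0.52, 95% interval -0.70 to 1.69, limma adjusted p = 0.992), and without DeltaKlf6 2 it was -0.09. The difference of Ccne1 exceeded that of Ccne2 by 0.66 on the log2 scale, within arrays, with overlapping groups (exact permutation p = 0.4, adjusted p = 0.533 over the 4 pairs of genes compared). That value ranged from 0.14 to 1.30 when single arrays were left out, lowest without DeltaKlf6 1 and highest without DeltaKlf6 2, and since Ccne2 lay at unspecific signal in 4 arrays it does not settle whether the E cyclins differed in response. The difference of Ccnd1 minus that of Ccne1 was -0.80 (exact permutation p = 0.3, adjusted p = 0.533), again with overlapping groups, and -0.47 without wildtype 2, -0.50 without DeltaKlf6 1 and -1.20 without DeltaKlf6 2.

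Cdk2, the kinase of the E-type cyclins, was at 6.41, 6.94 and 6.68 in wildtype 1 to 3 and at 6.03, 6.75 and 5.85 in DeltaKlf6 1 to 3. DeltaKlf6 1 and 3 lay below every wildtype array and DeltaKlf6 2 lay within them. The difference was -0.47 (SE 0.29, 95% interval -1.14 to 0.20, limma adjusted p = 0.992). It was -0.74 without DeltaKlf6 2 and -0.29 without DeltaKlf6 3, in which Cdk2 was lowest. Cdk2 thus had a lower mean in the libraries where the mean of its partner Ccne1 was higher, and only the Ccne1 groups separated.

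Cdk4, a kinase of the D-type cyclins, was at 6.97, 7.17 and 7.10 in wildtype 1 to 3 and at 7.50, 7.49 and 7.38 in DeltaKlf6 1 to 3. The groups were separated by 0.21, with SDs of 0.10 and 0.07. The difference was 0.38 (SE 0.19, 95% interval -0.07 to 0.83, limma adjusted p = 0.992, exact permutation p = 0.1), a fold of 1.30, and leaving out single arrays gave 0.32 to 0.42. That probe set has the suffix its maker gives where some probes may also bind other transcripts. The other Cdk4 probe sets were higher by group mean too, by 0.10 and 0.76, but their groups overlapped: the second was at 5.45, 6.71 and 5.83 in wildtype and at 6.77, 7.21 and 6.31 in DeltaKlf6. The direction was thus shared by all 3 probe sets and the separation was seen in the brightest alone.

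Cdk6, the other kinase of the D-type cyclins, was at 6.99, 7.38 and 6.91 in wildtype 1 to 3 and at 7.42, 7.29 and 6.11 in DeltaKlf6 1 to 3. A low value in DeltaKlf6 3, the library with the lowest upper quartile, set the difference of -0.15 (SE 0.37, 95% interval -0.998 to 0.70, limma adjusted p = 0.995), which was 0.27 without it. The next probe set of Cdk6 did not show this low value: it was at 6.59, 6.60 and 6.66 in DeltaKlf6 and at 6.96, 6.72 and 5.99 in wildtype. The probe sets of Cdk6 thus disagreed on which array was low. The difference of Cdk4 minus that of Cdk6, within arrays, was 0.53 (exact permutation p = 0.2, adjusted p = 0.533), and it was 0.15 without DeltaKlf6 3.

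**Figure D2:**
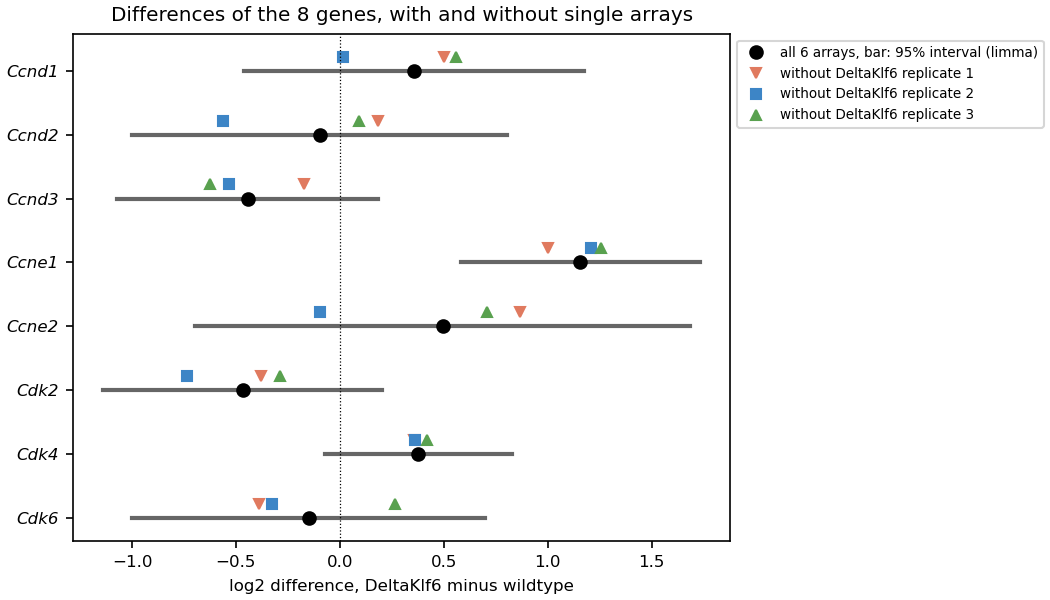
Log2 difference between the group means of the 8 genes, DeltaKlf6 minus wildtype, from all 6 arrays (black, with the 95% interval from limma) and without each DeltaKlf6 array (coloured). The interval of Ccne1, 0.58 to 1.73 before any adjustment, is the one that does not reach 0, and the differences of Ccnd2, Ccne2 and Cdk6 change sign when a single array is left out.

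**Figure D3:**
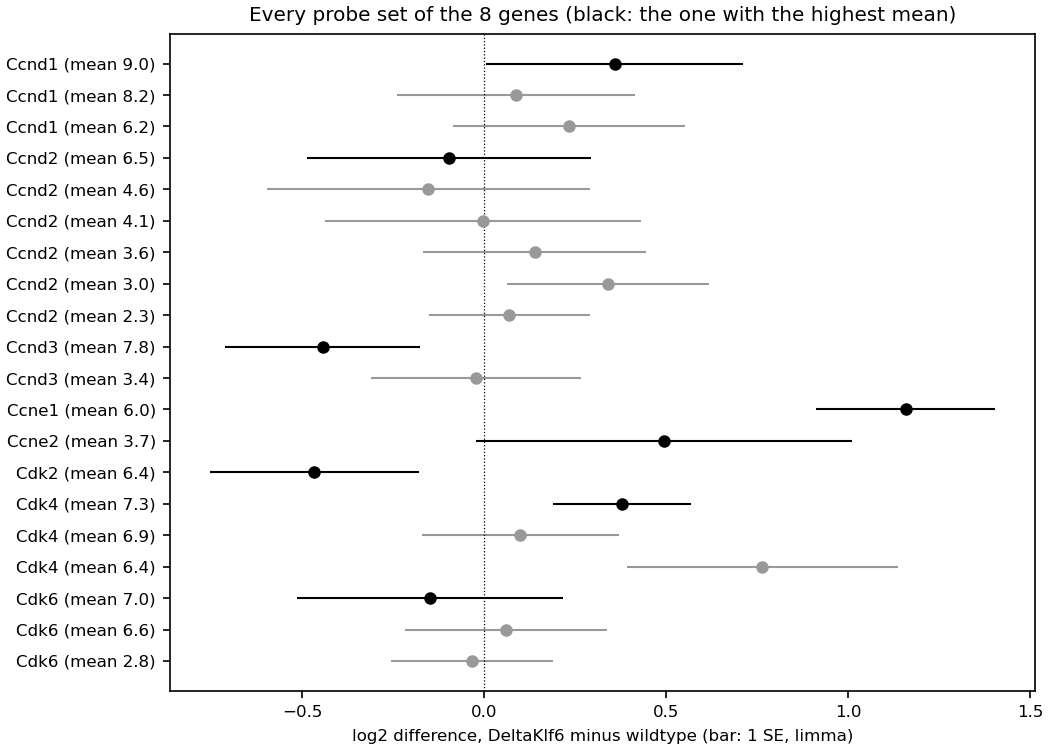
Log2 difference, DeltaKlf6 minus wildtype, of all 20 probe sets of the 8 genes, with 1 SE from limma and the mean level of each probe set in brackets. The 3 probe sets of Ccnd1 and the 3 of Cdk4 lie on the side of higher values. The 6 of Ccnd2 lie on both sides, and the 3 on the side of higher values are the dimmest, with means of 3.64, 2.95 and 2.28.

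The spread among the libraries labelled DeltaKlf6 was larger than that in wildtype for 6 of the 8 genes, against 68.1% of all genes, and Ccne1 and Cdk4 were the exceptions. Ccnd1, Ccnd2 and Ccne2 were highest of all 6 arrays in DeltaKlf6 2, which was the highest array for 18.3% of all genes. Among the libraries labelled DeltaKlf6 alone it was highest for 4 of the 8 genes, Cdk2 being the other, against 33.2% of all genes. Markers of macrophages (Kupffer cells) were also highest there in 7 of 8 cases. Their summed level was 10.27 to 10.72 in wildtype and 10.76 to 11.35 in DeltaKlf6, so the sums did not overlap. Taken singly, 0 of the 8 had groups that did not overlap. In DeltaKlf6 3 their median distance from the wildtype mean was -0.07, within the -0.28 to 0.28 of the wildtype arrays. By group mean 7 of the 8 were higher with 0 called. None of the 8 stayed under the nonspecific controls in all arrays. Without DeltaKlf6 2 their median difference fell from 0.41 to 0.09. The part of these cells in the cyclin values was not tested. Hepatocyte markers had a median difference of 0.04, with 4 of 7 higher.

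The E2F target genes of DNA replication, a list that includes Ccne1 and Ccne2, were mostly highest in DeltaKlf6 2. Of 26 measured genes 23 were higher by group mean with 0 called, and the median difference was 0.48, against -0.01 over all genes. In single arrays the median distance from the wildtype mean was -0.38, 0.65 and -0.20 in wildtype 1 to 3 and -0.27, 1.43 and 0.03 in DeltaKlf6 1 to 3. The higher group mean therefore came from DeltaKlf6 2, and without it 7 of 26 were higher and the median was -0.10. DeltaKlf6 2 was the highest array for 24 of the 26, including Ccne2, and the exceptions were Ccne1, highest in DeltaKlf6 1, and Ung, a repair enzyme that removes uracil from DNA, highest in wildtype 2 and named after its values were seen. Among the wildtype arrays, wildtype 2 was highest for 23 of the 26, and Ccne1 was the 1 gene for which it was lowest. Across all genes wildtype 2 was highest in wildtype for 35.8%. None of the 26 stayed under the nonspecific controls in all arrays, but several, including Ccne2, exceeded them in only 1 or 2. The order of their other arrays lies at the level of unspecific signal.

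**Figure D4:**
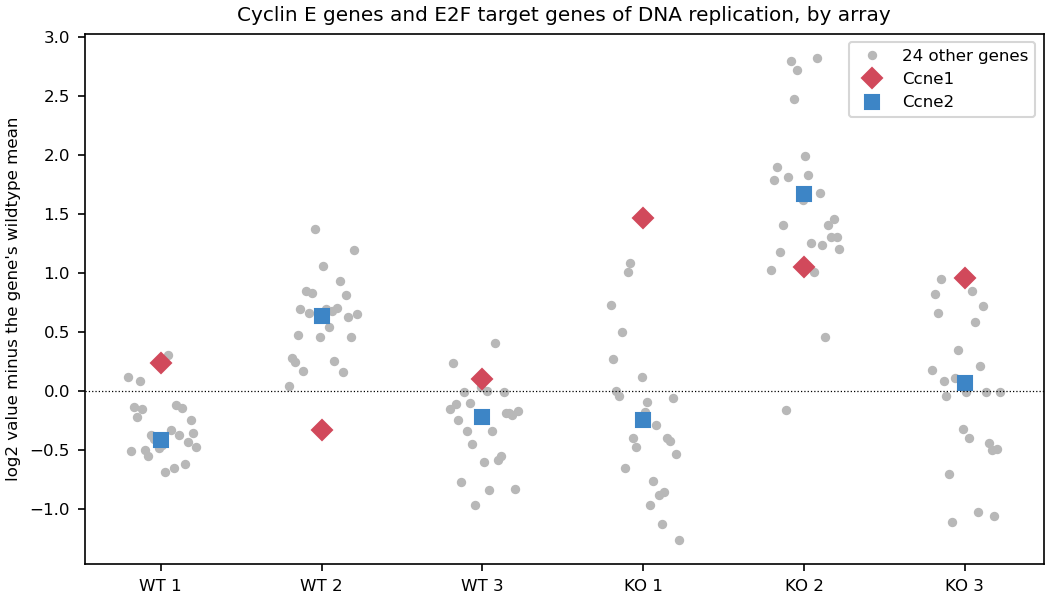
Log2 value minus the gene's own wildtype mean, by array, for the 26 E2F target genes of DNA replication, with Ccne1 as red diamonds, Ccne2 as blue squares and the 24 others in grey. Ccne2 moves with the grey points, high in WT 2 and KO 2, while Ccne1 is at -0.33 in WT 2 and at 1.47, 1.05 and 0.96 in the 3 KO arrays.

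The replication genes with the smallest unadjusted p were each highest in DeltaKlf6 2. Mcm7, a subunit of the replicative helicase, was at 5.46, 5.84 and 5.49 in wildtype and at 5.60, 7.49 and 6.26 in DeltaKlf6 (log2 difference 0.85, SE 0.45). Chaf1b, a histone chaperone subunit of replicating chromatin, was at 3.60, 3.51 and 3.32 and at 4.21, 4.51 and 3.65, and its groups did not overlap (0.64, SE 0.26). Chaf1b exceeded the brightest nonspecific control in DeltaKlf6 2 alone, so that its order in the other 5 arrays lies at the level of unspecific signal. Pole, the catalytic subunit of DNA polymerase epsilon, which also exceeded those controls in DeltaKlf6 2 alone (0.96, SE 0.41), and Cdc45, which activates the helicase (0.70, SE 0.37), overlapped between the groups.

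Of the later cyclins and their kinase, 4 of 5 measured genes were higher by group mean and 0 were called. Ccna2, the cyclin of S phase and G2, was at 3.998, 4.12 and 4.97 in wildtype and at 4.60, 6.37 and 4.65 in DeltaKlf6 (0.84, SE 0.50), and its partner Cdk1 was at 3.65, 5.03 and 4.77 and at 4.36, 6.79 and 5.14 (0.95, SE 0.62). Both were highest in DeltaKlf6 2, without which their differences were 0.26 and 0.27, with the other DeltaKlf6 arrays inside or near the wildtype range. In wildtype 1 and DeltaKlf6 1 Cdk1 did not exceed the nonspecific controls. Ccnf, whose product marks proteins for degradation in G2, had a difference of -0.36 (SE 0.32), and Ccna1, the germline cyclin A, of 0.06 at a level under the nonspecific controls in all 6 arrays.

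The inhibitors of the G1 kinases had 4 of 7 members higher and 3 lower, with 0 called and a median of 0.07. Without DeltaKlf6 1, the library with high Klf6, 3 of 7 were higher and the median was -0.0287. Cdkn1a (p21), an inhibitor of Cdk2 complexes that p53 and stress induce, was at 7.45, 7.63 and 9.31 in wildtype and at 10.18, 7.995 and 8.09 in DeltaKlf6 (0.63, SE 0.69). It was high in wildtype 3 and DeltaKlf6 1, the library that was also high in Klf6, so the groups overlapped, and without DeltaKlf6 1 the difference was -0.0879. The difference of Ccnd1 minus that of Cdkn1a, within arrays, was -0.27 (exact permutation p = 0.9, adjusted p = 0.9) and turned to 0.59 without DeltaKlf6 1. Cdkn2b (p15), an inhibitor of Cdk4 and Cdk6, did not overlap (0.41, SE 0.21), at levels of 2.74 to 3.46 that lay under the nonspecific controls in all arrays, as those of Cdkn2a (0.33) did. Cdkn2d (p19), of the same family, had a difference of -0.20 (SE 0.27).

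Pocket proteins and E2F factors had 7 of 13 members higher, with 0 called and a median of 0.03, and 4 of 13 with a median of -0.35 without DeltaKlf6 2. Tfdp2, a dimerization partner that E2F factors need to bind DNA, was at 4.89, 5.27 and 4.37 in wildtype and at 6.38, 5.49 and 5.55 in DeltaKlf6 (0.97, SE 0.33), with groups that did not overlap. E2f8, a repressor of E2F targets, was at 6.36, 7.45 and 6.86 and at 4.06, 6.69 and 6.49 (-1.14, SE 0.67), a difference that was -0.30 without DeltaKlf6 1. In DeltaKlf6 1 alone E2f8 did not exceed the nonspecific controls. Rb1, the retinoblastoma protein, had a difference of -0.49 (SE 0.30). E2f4, a repressive E2F of quiescent cells, had one of 0.42 (SE 0.23) without overlap, at levels under the nonspecific controls in all arrays.

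Genes that activate the kinases or degrade the cyclins had 7 of 16 members higher and 9 lower, with 0 called and a median of -0.09, which was 0.0175 without DeltaKlf6 3. Mnat1, the assembly subunit of the kinase that activates Cdks, was at 4.68, 4.27 and 4.64 in wildtype and at 6.14, 5.42 and 5.55 in DeltaKlf6 (1.17, SE 0.26), with no overlap, on a probe set that reads several transcripts of the gene. Cdk7, its catalytic partner, was at 4.72, 5.81 and 5.14 and at 6.62, 6.05 and 4.96 (0.65, SE 0.45), with overlap. Fbxo31, an F-box protein reported to direct cyclin D1 to degradation, was lower in every DeltaKlf6 library, at 7.18, 5.79 and 7.03 against 7.69, 7.54 and 7.96 (-1.06, SE 0.38). It was lowest in DeltaKlf6 2, the array in which Ccnd1 was highest, and its difference without that array was -0.62. A link between Fbxo31 and Ccnd1, read here as RNA and not as protein, was not tested. Cdc25b, a phosphatase that activates Cdks, was also lower without overlap, at 3.17, 2.92 and 3.13 against 3.81, 3.21 and 3.37 (-0.39, SE 0.23), but it exceeded the nonspecific controls in wildtype 1 alone, so that its separation lies at the level of unspecific signal. None of these genes passed the test (limma adjusted p = 0.992 for each).

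Mitogenic inputs to cyclin D1 had 6 of 9 measured members higher, with 0 called and a median of 0.30. They were high in DeltaKlf6 1, with a median distance of 1.10 from the wildtype mean against 0.05 and 0.04 in DeltaKlf6 2 and 3, and without DeltaKlf6 1 the median was -0.08 with 2 of 9 higher. Fos, an immediate early transcription factor, was at 7.46, 4.81 and 3.17 in DeltaKlf6 against 3.55 to 4.69 in wildtype, and Hbegf, an EGF receptor ligand, at 6.16, 3.23 and 3.89 against 3.19 to 3.90. Without DeltaKlf6 1 their differences were -0.122 and -0.0746. Fos exceeded the nonspecific controls in 4 of 6 arrays and Hbegf in 2 of 6. Met, the receptor of hepatocyte growth factor, had a difference of -0.57 (SE 0.27), and Egfr, the EGF receptor, of 0.50 (SE 0.32), which was 0.18 without DeltaKlf6 1. Ccnd1 was at 8.94 in DeltaKlf6 1, within the wildtype range, and was highest in DeltaKlf6 2. A link between these inputs and Ccnd1 was not tested.

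The genes nearest in pattern to each cyclin were found by the root mean square difference of log2 values over the 6 arrays, each gene centred on its own mean, among 7341 genes with a mean of at least 5 (7342 for Ccne2, which is itself below that mean). This was done for the 4 genes whose SD over the arrays exceeded 0.5. Nearest to Ccne1 were Mnat1 (0.10), Ralgapa1, a Ral GTPase regulator (0.24), and Kdm5a, a histone demethylase (0.25), against an SD of Ccne1 itself of 0.68. Mnat1 thus lay much closer than the gene after it, and it was also lowest in wildtype 2 and highest in DeltaKlf6 1. Nearest to Ccnd1 were Gart, an enzyme of purine synthesis (0.06), Nfe2l2, the transcription factor of the antioxidant response (0.09), and Tcirg1, a proton pump subunit (0.10). Nearest to Ccnd2 were the phosphatase gene Ptprf (0.09), the glutathione synthetase gene Gss (0.10) and the histone methyltransferase gene Ezh2 (0.11). Nearest to Ccne2 were Mrpl34, a mitochondrial ribosomal protein (0.09), Ang, a secreted ribonuclease (0.18), and Grtp1 (0.21). These are the closest of all candidates, so their likeness is a description.

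**Figure D5:**
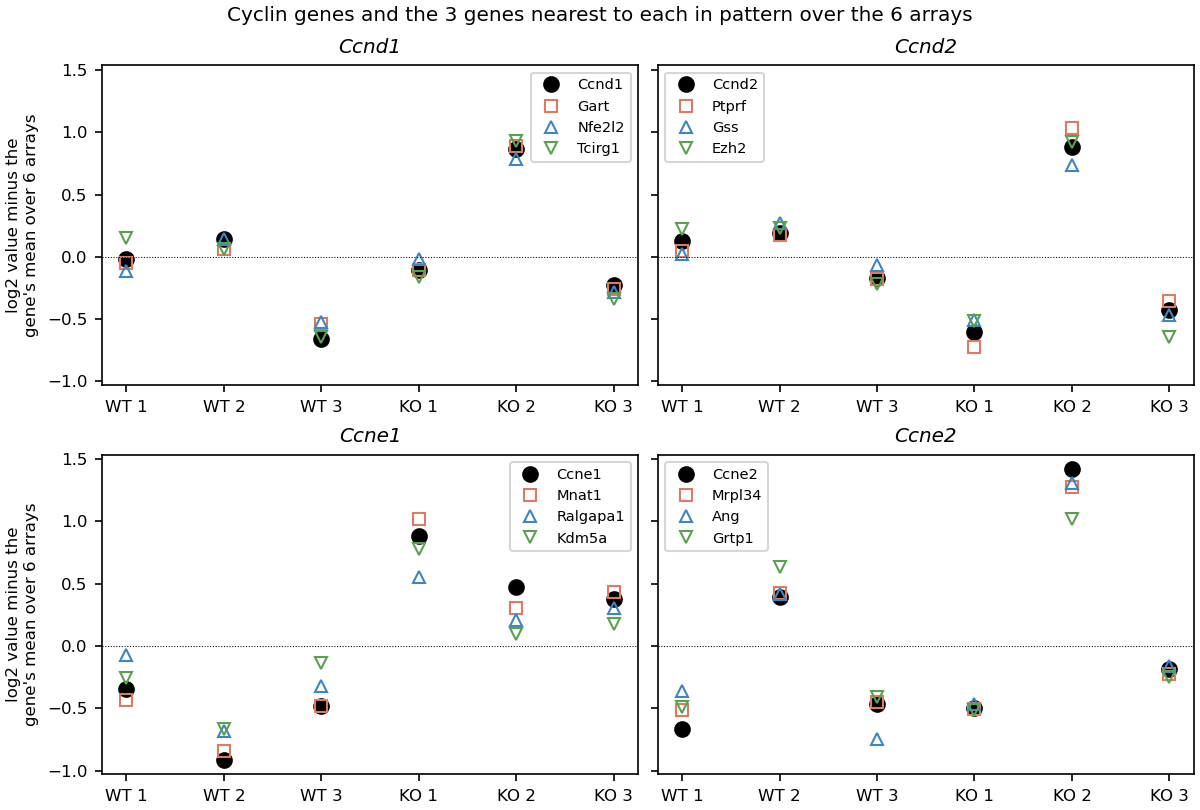
Log2 value minus the gene's mean over the 6 arrays for Ccnd1, Ccnd2, Ccne1 and Ccne2 (black) and the 3 genes nearest to each (open symbols). The matches of Ccnd1, Ccnd2 and Ccne2 share a high KO 2, and those of Ccne1 share a low WT 2 and a high KO 1.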

How the data were processed

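Total RNA of 6 mouse livers was prepared for the arrays with an Affymetrix kit for 3' labelling, per the labels' protocols. Per the submitters' processing notes, the authors used RMA in Expression Console 1.2.1, and the deposited values lie on a log2 scale, a base inferred from the values. No build or annotation version is named in the labels. Scanner files were not used here, so the background correction and slide could not be varied. Of 45141 probe sets, 28898 had 1 gene symbol in the platform annotation, 551 several and 15692 none here. Each of 17097 genes was represented by its brightest probe set.

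Groups were compared by limma (version 3.58.1, R 4.3.3; lmFit, eBayes) with genotype as the only term and Benjamini-Hochberg adjustment over all genes at 0.05. Single values had exact two-sided permutation tests (scipy 1.17.1). The fit was tested on simulated data. The number of arrays limits the precision. Named genes are the 8 genes, Klf6, Cdkn1a, up to 4 genes of smallest unadjusted p per pathway list, and the nearest 3 in pattern. The 7 pathway lists held 98 measured of 102 entries and the 7 marker lists 47 of 50. Members and lists were chosen with earlier results of these data known. Deviations of same-numbered arrays correlated at -0.0049, 0.262 and 0.0837, so the numbers were not taken as pairs. The value of number 2 was the largest between any wildtype and any DeltaKlf6 array. Alternatives were other probe set rules, a filter on dim genes, 2 renormalizations, 2 variance models, array weights, a replicate block and each array left out.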

Additional observations from a re-analysis of the deposited data

Results flagged for a closer look

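Some control probe sets outside the gene comparison were higher in the library labelled DeltaKlf6 3 than in every wildtype array. Its hybridization controls, spiked RNAs added at fixed amounts, were at 11.22 (log2), against 10.16 to 10.34 in wildtype, and its Gapdh 3' minus 5' signal was 4.83, against 4.06 to 4.43. Its actin 3' minus 5' signal, a control of the same kind, was 5.05 and lay within the wildtype range of 4.86 to 5.39. DeltaKlf6 1 and 2 lay below every wildtype array on all of these controls. They were at 9.92 and 9.86 for hybridization, 3.47 and 3.45 for Gapdh and 4.22 and 3.998 for actin. In DeltaKlf6 3, Cdk2 and Cdk6 were at their lowest, 0.83 and 0.99 under the wildtype mean, while Ccne1 was 0.96 above it. The part of these controls in the gene values was not tested.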

How the results depend on the processing

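Ccnd1, Ccnd3, Ccne1, Cdk2 and Cdk4 kept the sign of their difference under all alternatives that gave a value, and no gene of the 8 and no other gene passed adjustment under any of them. Leaving out each array in turn moved the differences within -0.56 to 0.18 for Ccnd2, -0.0935 to 0.87 for Ccne2 and -0.39 to 0.27 for Cdk6, ranges that include a change of sign. The sign of Ccnd2 also turned with the mean of its probe sets (0.0484), which includes the 3 dimmest, with differences of 0.14, 0.34 and 0.07. It turned too with quantile normalization repeated (0.0256) and with array weights (0.0521), and that of Cdk6 turned with array weights (0.0552). The lowest array weight was that of DeltaKlf6 3, at 0.38. The cause of the turns with normalization and with weights was not tested. The difference of Ccnd1 minus that of Cdkn1a ranged from -1.10 to 0.59, that of Ccne1 and Ccne2 from 0.14 to 1.30 and that of Cdk4 and Cdk6 from 0.15 to 0.75. By group mean 3 to 6 of the 8 genes were higher when single arrays were left out, an alternative added after the data were seen. Genes at an unadjusted p under 0.05 numbered 631, 401 with dim genes left out, where fewer genes were tested, and 379 to 1546 without single arrays. Without probe sets of the shared types Cdk2 has no value and the Cdk4 difference was 0.76. The replicate number as a block gave 703 genes at an unadjusted p under 0.05 and 0 after adjustment. Such a block leaves the differences of the 8 genes unchanged, that of Ccne1 at 1.16, and alters their SE. The SE fell from 0.52 to 0.27 for Ccne2 and from 0.35 to 0.26 for Ccnd1, and rose from 0.19 to 0.22 for Cdk4. Not every array deviated most like its own number.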

Other observations

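Among cyclins and kinases outside G1 control, 11 of 22 measured genes were higher in DeltaKlf6 by group mean and 11 lower, with a median difference of 0.00. By limma 0 were called at an adjusted p under 0.05, against 0% of all genes. At an unadjusted p under 0.05 stood 0, against 3.69% of all genes. Without DeltaKlf6 1 the median was -0.16 with 8 of 22 higher, and without DeltaKlf6 2 it was -0.17 with 7 of 22. Ccng1, cyclin G1, a p53 target, was at 7.83, 7.78 and 7.88 in wildtype 1 to 3 and at 8.43, 8.16 and 7.97 in the libraries labelled DeltaKlf6 1 to 3 (0.36, SE 0.21). It was the 1 gene of the 22 whose groups did not overlap, against 9.32% of all genes, with 3.41% higher. Cdk10 (-0.45, SE 0.22), Cdk11b, a kinase of splicing and mitosis (0.38, SE 0.25), and Cdk18 (-0.31, SE 0.26) overlapped.

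Of 7 endothelial, 7 stellate, 5 cholangiocyte, 7 lymphocyte and 6 neutrophil markers, the groups did not overlap for 1, 0, 0, 1 and 1. Over all genes they did not overlap for 9.32%, with 5.91% lower. These 3 were lower in DeltaKlf6 and named after the values were seen. They were Kdr, Cd3g of T cells (-0.46, SE 0.22, under the nonspecific controls in all arrays) and Camp of neutrophils (-0.36, SE 0.20). Camp exceeded those controls in the 3 wildtype arrays alone. Among the hepatocyte markers Tat, also named after its values were seen, did not overlap and was higher (0.64, SE 0.35). Of 7 sinusoidal endothelial markers 4 were lower. Kdr, the main VEGF receptor, the 1 gene of that list at an unadjusted p under 0.05, was at 6.499, 6.63 and 6.54 in wildtype and at 5.60, 6.28 and 5.18 in DeltaKlf6 (-0.87, SE 0.30). Stellate cell markers were highest in DeltaKlf6 2 in 6 of 7 cases, the array that was also highest for Ccnd1, Ccnd2 and Ccne2, and their median distance from the wildtype mean there was 0.58. Lymphocyte, neutrophil and cholangiocyte markers had 2 of 7, 2 of 6 and 4 of 5 measured members higher. Of these lists 3, 2 and 2 members lay under the nonspecific controls in all arrays. Without DeltaKlf6 1 the cholangiocyte count was 2 of 5 and the median turned from 0.15 to -0.0989. No cholangiocyte marker exceeded those controls in more than 2 arrays, so this count and median lie at the level of unspecific signal.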
